A study of Mus musculus with 10 samples.

Results

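The ezrin-radixin-moesin (ERM) family comprises Ezr, Rdx and Msn, which encode ezrin, radixin and moesin, and its close relative Nf2, which encodes merlin. These 4 genes were taken by symbol from a table of 18216 genes measured by RNA-Seq in the prefrontal cortex of mice at postnatal day 10. All 4 were in the table and passed the filter on low values. They were chosen by the normalised counts of Ezr, which lies near Arid1b on chromosome 17 and was higher in every heterozygote than in every wild type. The values of Ezr are therefore given as a description, with no test, and the question asked of the data was whether its paralogs moved with it.

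The mice were males on the C57BL/6N background, 5 Arid1b heterozygotes (Arid1b+/–, HT1 to HT5) and 5 wild types (WT1 to WT5), with 1 library per mouse. HT mice carry 1 truncated copy of Arid1b, whose product belongs to the BAF complex, a remodeller of chromatin. The allele was made with CRISPR/Cas9 in C57BL/6N and kept by crossing HT males with C57BL/6N females, is present in every cell, and comes from a single edited line, so that the mutation and the stretch of chromosome 17 inherited with it cannot be told apart. No treatment was given. The values are normalised counts, that is, estimated reads per gene divided by a size factor per library, and log2 fold changes were computed on log2(value + 1).

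ERM proteins tether the plasma membrane to the actin cytoskeleton. Their amino-terminal FERM domain binds membrane lipids and the tails of membrane proteins, their carboxy-terminal end binds actin, and phosphorylation of a threonine in that end holds the protein in its open, active form. Merlin shares the FERM domain but acts as a tumour suppressor that feeds into the Hippo kinase pathway, and its loss causes schwannomas and meningiomas. In brain, ezrin is known from the fine processes of astrocytes and from the microvilli of ependyma and choroid plexus, radixin from growth cones and from the anchoring of a GABA-A receptor subunit, and moesin from endothelial cells and microglia.

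The last 81 coding bases of the 4 genes are shown first, because they show how far the messages of the family can be told apart. In the ERM genes they encode part of the actin-binding end, with the codon of that threonine. In the 3 ERM genes capitals mark the bases that are the same in Ezr, Rdx and Msn, and in Nf2 they mark the bases that match those shared ones. The sequences are GENCODE M21 transcripts, read 5′ to 3′ on the gene's strand up to the stop codon.
Ezr: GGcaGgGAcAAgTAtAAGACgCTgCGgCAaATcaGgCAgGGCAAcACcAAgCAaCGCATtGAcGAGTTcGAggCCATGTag
Rdx: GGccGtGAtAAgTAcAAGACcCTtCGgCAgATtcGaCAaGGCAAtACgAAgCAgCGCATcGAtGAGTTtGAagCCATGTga
Msn: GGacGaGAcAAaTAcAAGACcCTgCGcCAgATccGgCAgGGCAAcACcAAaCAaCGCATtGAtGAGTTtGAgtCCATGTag
Nf2: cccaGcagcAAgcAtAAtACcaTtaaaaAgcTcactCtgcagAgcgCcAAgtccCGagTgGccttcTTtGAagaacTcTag
These bases lie in the last coding exon of Ezr (GRCm38 chr17:6739303-6739383, minus strand), of Rdx (chr9:52086399-52086479, plus strand) and of Msn (chrX:96166554-96166634, plus strand), while those of Nf2 span more than 1 exon between positions 4768223 and 4782216 of chromosome 11 (minus strand).

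Of the 81 positions, 56 were the same in all 3 ERM genes, and 21 of the 25 that differed were the third base of a codon. Merlin matched 26 of those 56 shared positions. Over the whole coding sequence, Ezr was 73.2% identical to Msn, 69.9% to Rdx and 62.1% to Nf2 at aligned bases, and the longest exact run it shared was 32 bases, with Msn. Of the 31-base words in Ezr transcripts, 1.23% also occurred in transcripts of another gene (Msn and the processed pseudogene Gm5739), against 0% for Rdx, 0.222% for Msn and 0.158% for Nf2. At this word length the 4 genes are separable over nearly all of their sequence.

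Arid1b was examined first as a check of the labels. Its normalised count was 1938, 1767, 1987, 1849 and 1929 in HT1 to HT5 and 3018, 2807, 2775, 2949 and 2662 in WT1 to WT5. Every library matched its genotype, with a log2 difference of -0.59 (SE 0.05, limma adjusted p 9.96e-05). Of 16781 genes tested, 3 (0.0179%) had a limma adjusted p under 0.05, of which 2 (0.0119%) were higher and 1 (0.00596%), Arid1b, lower in HT. In all, 1549 genes (9.23%) had an unadjusted p under 0.05. The median log2 difference of all genes tested was 0.00. Cortical markers such as Slc17a7 and Tbr1 were present in every library, while striatal markers summed to between 4127 and 16324 across the 10 mice, and this spread did not separate the genotypes.

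Ezr (ENSMUSG00000052397, chr17:6738041-6782784, minus strand, protein-coding) had normalised counts of 1543, 1962, 1625, 1667 and 2211 in HT1 to HT5. In WT1 to WT5 it had 1383, 1373, 1227, 1353 and 1455. The lowest HT mouse (HT1) thus lay just above the highest WT mouse (WT5), and HT2 and HT5 stood above the other HT mice. The mean of the HT mice was 1802 ± 278 and that of the WT mice 1358 ± 82.9 (SD, 5 mice each), a ratio of 1.33 and a log2 difference of 0.40 (SE 0.09). Among all genes tested, 272 (1.62%) had groups that did not overlap, 118 (0.703%) with every HT value above every WT value, the pattern for which Ezr was chosen, and 154 (0.918%) with every HT value below. Without HT2 and HT5 the mean of the other 3 HT mice was 1612 ± 62.9 and the log2 difference was 0.25 (SE 0.06). That these 3 mice lay above all WT mice follows from how Ezr was chosen. The fall in the difference follows from leaving out the highest HT mice.

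Msn (ENSMUSG00000031207, chrX:96096042-96168552, plus strand) was the paralog that came nearest to this pattern, but it did not pass the test. Its normalised counts were 1078, 1462, 1089, 1237 and 1410 in HT1 to HT5 and 1129, 988, 1000, 1114 and 1070 in WT1 to WT5. HT2, HT4 and HT5 lay above all WT mice, and HT1 and HT3 lay inside the WT range. The means were 1255 ± 178 (SD, n = 5) and 1060 ± 64.4 (SD, n = 5), with a log2 fold change of 0.23 (SE 0.09, 95% interval 0.05 to 0.42, unadjusted limma p 0.0169, adjusted over all genes 0.492). Of all genes, 4.71% were higher and 4.52% lower in HT at an unadjusted p under 0.05. Without HT2 and HT5 the log2 fold change of Msn was 0.10 (SE 0.07, unadjusted limma p 0.177), so that its unadjusted p under 0.05 was lost. HT2 and HT5 were the highest mice for Msn, so leaving them out had to lower the difference, and it left 3 HT mice.

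Rdx (ENSMUSG00000032050, chr9:52047173-52088735, plus strand) was the steadiest ERM gene. It had 2438, 2517, 2516, 2473 and 2430 normalised counts in HT1 to HT5 and 2479, 2531, 2292, 2548 and 2285 in WT1 to WT5. All HT values lay within the WT range. The means were 2475 ± 41.1 (SD, n = 5) and 2427 ± 129 (SD, n = 5), a log2 difference of 0.03 (SE 0.04, limma adjusted p 0.843). Its 95% interval, from -0.07 to 0.12, leaves room for only a small change in either direction.

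Nf2 (ENSMUSG00000009073, chr11:4765845-4849536, minus strand) also overlapped between genotypes. It had 5368, 5663, 5623, 5425 and 5433 normalised counts in HT1 to HT5 and 5786, 5618, 5391, 5802 and 5765 in WT1 to WT5. The means were 5502 ± 131.5 (SD, n = 5) and 5672 ± 173 (SD, n = 5), with a log2 fold change of -0.04 (SE 0.04, 95% interval -0.13 to 0.04, limma adjusted p 0.711). All 5 HT mice lay below the WT mean, yet HT1 alone was below the lowest WT mouse. Of the 3 members that could be tested, 0 passed an adjusted p under 0.05 with limma (0.0179% of all genes did), and 1 (Msn) had an unadjusted p under 0.05 (9.23% of all genes).

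**Figure D1:**
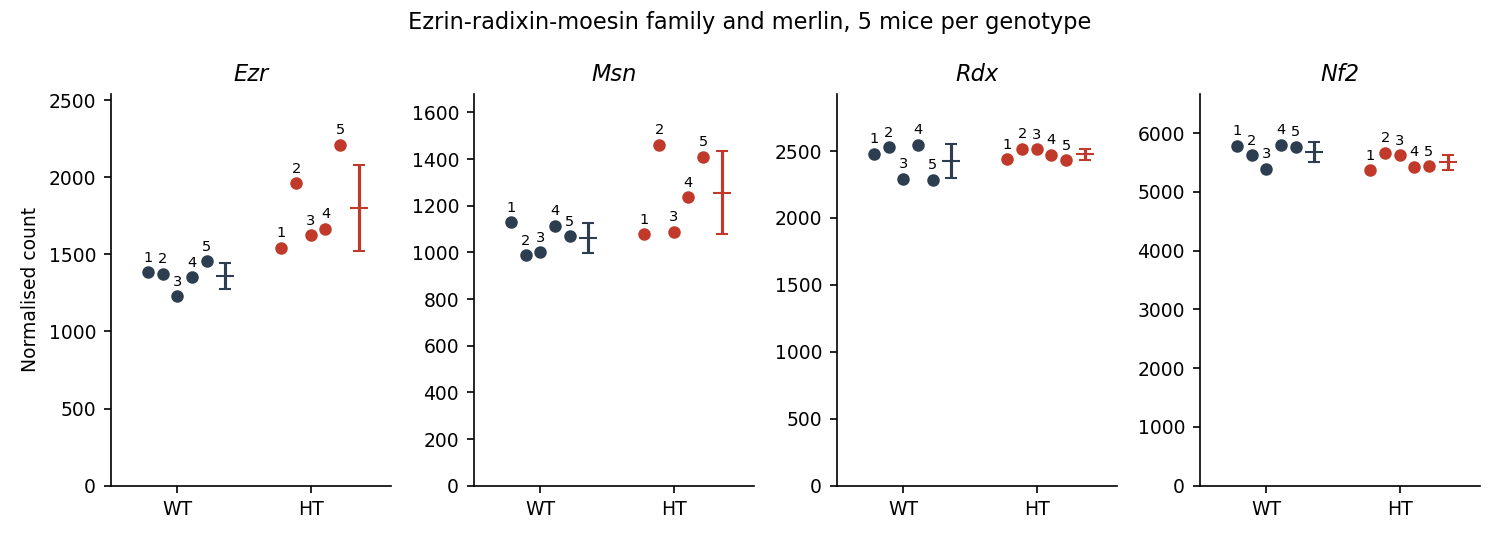
Normalised counts of Ezr, Msn, Rdx and Nf2 in each mouse (points, numbered by mouse; bars beside them give mean and SD, n = 5 per genotype; each vertical axis starts at 0). The HT points of Ezr lie between 1543 and 2211, above all WT points, those of Msn reach 1462 but overlap the WT range, and those of Rdx and Nf2 do not separate from WT.

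Ezr and Msn varied together from mouse to mouse. After the mean of each genotype was subtracted, the Pearson r of their log2 values over the 10 mice was 0.83, against 0.02 for Ezr with Rdx, 0.11 for Msn with Rdx and 0.35 for Ezr with Nf2. HT2 and HT5 were highest for both genes, and all points come from the same 10 libraries, so these values are a description only. The SD of Ezr was 15.4% of its mean in HT and 6.11% in WT, and that of Msn was 14.2% and 6.07%. For Rdx the corresponding values were 1.66% and 5.31%. Among the 3 ERM genes, the HT group was thus wider for Ezr and Msn and not for Rdx, although the difference in spread was not tested. A wider HT group was not particular to them. Of the marker sums described below, that of microglia had an SD of 2386 in HT and 791 in WT. That of the oligodendrocyte lineage went the other way, with 10923 in HT and 23750 in WT.

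Per length, Nf2 had the highest level of the 4 genes and Msn the lowest. Divided by the summed length of all annotated exons, the normalised count per kb in WT was 831 ± 25.4 for Nf2, 523 ± 27.8 for Rdx, 413 ± 25.2 for Ezr and 168 ± 10.2 for Msn (SD, n = 5). In WT the ranges of neighbouring genes in this order did not overlap, as Rdx ran from 493 to 549 and Ezr from 373 to 442. In HT the mean of Ezr (548 ± 84.6) came to that of Rdx (533 ± 8.87), and their order could not be told from the spread, since Ezr ran from 469 to 672. Of the 3 ERM genes summed per kb, Ezr made up 37.4% ± 1.56 in WT and 42.6% ± 2.94 in HT, while the share of Msn was 15.2% ± 0.71 and 15.5% ± 1.04 (SD, n = 5). The ratio of Ezr to Rdx within a mouse was 0.786, 0.765, 0.754, 0.749 and 0.898 in WT1 to WT5 and 0.892, 1.1, 0.911, 0.95 and 1.28 in HT1 to HT5, so that HT1 fell just below WT5.

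**Figure D2:**
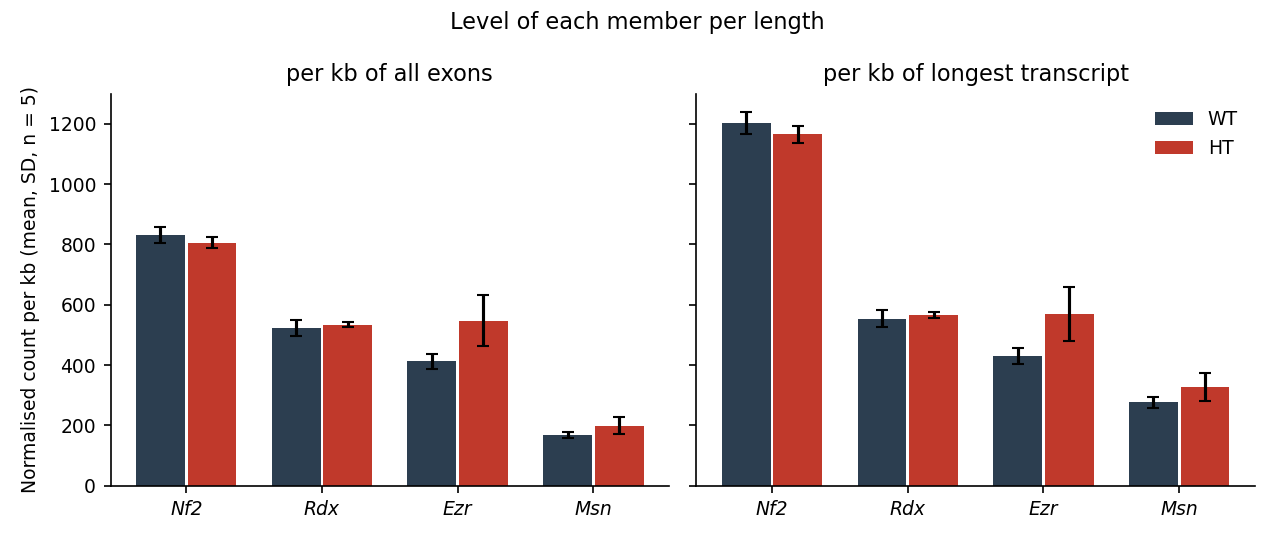
Level of each member per kb of all annotated exons (left) and per kb of its longest transcript (right), as mean and SD over 5 mice per genotype. Nf2 is highest and Msn lowest by either length, and Ezr lies below Rdx in WT (413 against 523 per kb of exon) but near it in HT (548 against 533).

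The neighbourhood of Arid1b was examined next, because Ezr lies in it. Ezr lies 1.39 Mb beyond the end of Arid1b, and 27 tested genes other than Arid1b lie within 2.5 Mb of it on either side. Besides Ezr, 3 of the other 26 had all HT values above all WT values (Dynlt1b, Tmem181b-ps and Tmem181c-ps), against 0.703% of all genes, and 0 had them all below, against 0.918%. With Ezr they fell in a stretch between 1.08 and 1.39 Mb beyond Arid1b. The 7 tested genes on the other side of Arid1b, such as Tiam2 and Scaf8, each overlapped between genotypes. Of the 26 neighbours other than Ezr, 2 passed an adjusted p under 0.05 (0.0179% of all genes did) and the median log2 fold change was -0.04. Between Arid1b and Ezr lay 14 tested genes, of which 5 (35.7%) had an unadjusted p under 0.05 against 9.23% of all genes, 4 of them higher in HT, and the median was 0.02.

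The genes nearest to Ezr with a separation of genotypes belong to the Dynlt1 and Tmem181 clusters. Tmem181c-ps (chr17:6613753-6639790, minus strand, an unprocessed pseudogene) had 318, 275, 346, 282 and 319 normalised counts in HT1 to HT5 and 191, 206, 267, 205 and 189 in WT1 to WT5. The groups did not overlap, WT3 lay apart from the other WT mice, and the log2 fold change of 0.55 (SE 0.11) had a limma adjusted p of 0.289. Dynlt1b, a dynein light chain, was higher in HT by 0.46 on the log2 scale (SE 0.04, limma adjusted p 0.000522), and Tmem181b-ps by 0.60 (SE 0.05, limma adjusted p 7.33e-05). These copies are hard to tell apart, since 86.9% of the 31-base words of Dynlt1b, 57.8% of those of Tmem181b-ps and 81.3% of those of Tmem181c-ps occur in other genes, against 1.23% for Ezr. HT5 and HT2 were the highest mice for Dynlt1b as well, but its HT values ran only from 2279 to 2452, while those of Tmem181b-ps were lowest in HT5 (8106) and highest in HT2 (8886).

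The genes on either side of Ezr did not share its pattern. Dynlt1f, the tested gene just before it, had 275, 324, 247, 311 and 368 in HT1 to HT5 and 309, 313, 353, 393 and 298 in WT1 to WT5 (log2 fold change -0.13, SE 0.11, limma adjusted p 0.70). Rsph3b, a gene of the ciliary radial spoke just beyond it, had 556, 581, 556, 636 and 638 against 624, 612, 639, 588 and 657 (log2 fold change -0.07, SE 0.06, limma adjusted p 0.696). Both overlapped between genotypes, with slightly lower HT means. Dynlt1f is among the genes in which shared words of Dynlt1b occur. Its own share of such words was not computed, so its values may carry the same limit. Ezr also overlaps Sytl3 on the opposite strand, which was not analysed here. The labels name a stranded library kit, but whether the abundance estimates used the strand is not given in the sources used here.

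**Figure D3:**
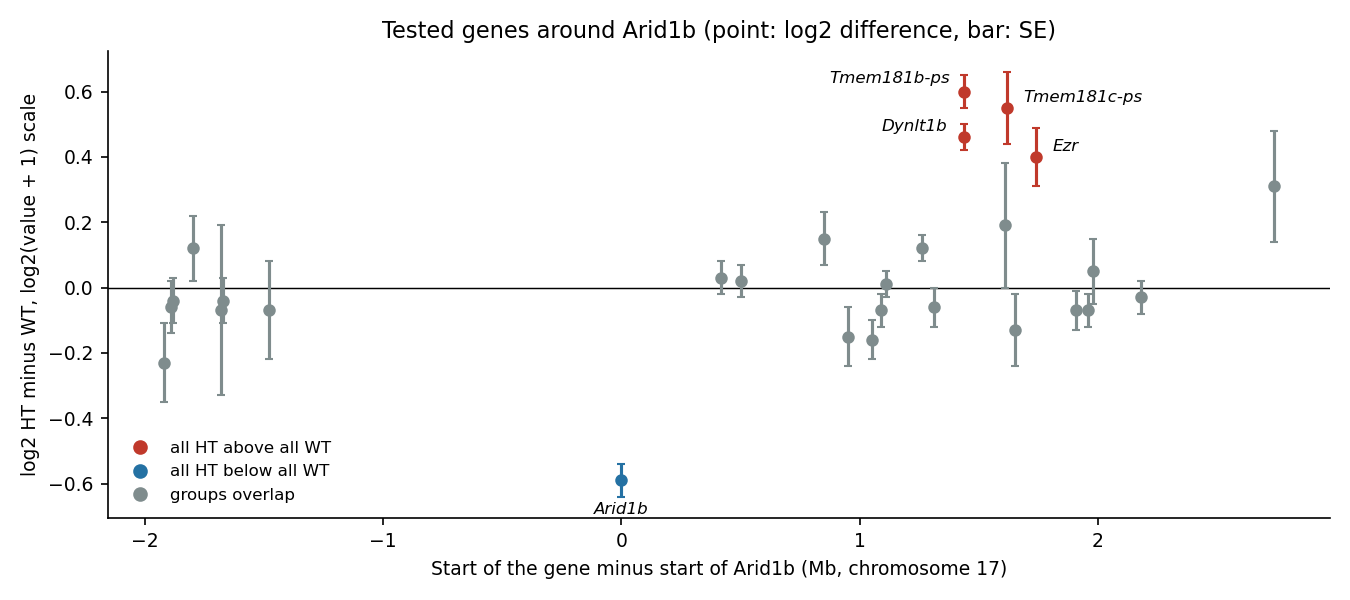
log2 difference between HT and WT (points; bars give the SE) for Arid1b and the 27 tested genes within 2.5 Mb of it, against the distance between the start of each gene and that of Arid1b. Red points, with all HT above all WT mice, are Dynlt1b (0.46), Tmem181b-ps (0.60), Tmem181c-ps (0.55) and Ezr (0.40), and the other genes except Arid1b (blue, all HT below all WT) overlap between genotypes.

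The stretches before the start sites of Ezr and Msn are shown because these were the members that varied together. They are the 250 bases before each RefSeq start (GRCm38.p6, 5′ to 3′ on the gene's strand), at chr17:6782781-6783030 (minus strand) for Ezr and chrX:96095795-96096044 (plus strand) for Msn, with the letters GGGCGG, the core of an SP1 site, in capitals on either strand (CCGCCC on the other).
Ezr: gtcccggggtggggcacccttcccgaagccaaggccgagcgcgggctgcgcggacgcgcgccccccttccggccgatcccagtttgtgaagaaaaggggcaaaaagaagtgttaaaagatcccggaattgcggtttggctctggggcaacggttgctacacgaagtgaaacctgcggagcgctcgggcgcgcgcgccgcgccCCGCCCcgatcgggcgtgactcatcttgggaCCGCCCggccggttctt
Msn: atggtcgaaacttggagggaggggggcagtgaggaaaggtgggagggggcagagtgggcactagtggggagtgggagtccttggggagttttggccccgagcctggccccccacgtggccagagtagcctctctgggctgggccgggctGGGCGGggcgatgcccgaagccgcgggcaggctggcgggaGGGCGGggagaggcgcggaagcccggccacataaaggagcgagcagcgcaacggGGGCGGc
Ezr held 2 such matches and Msn 3, and 32.7% of 32851 RefSeq promoters of the same length held at least 1. Of the 2 starts listed for Rdx neither held a match, and of the 2 for Nf2 1 did. The stretch of Ezr held 32 CpG pairs, a number that 96% of promoters did not exceed, and that of Msn 18. The letters CATTCC, the core bound by TEAD factors of the Hippo pathway, were in none of these stretches of the 4 genes, against 12.6% of all promoters. Such matches describe the letters only.

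Genes known to work with the family were then examined in 6 lists (membrane partners, scaffolds, kinases with phosphatases and the lipid switch, the Hippo pathway, target genes of its effectors YAP and TAZ, and other FERM-domain genes). Of 138 genes tested, 0 had a limma adjusted p under 0.05, 28 (20.3%) had an unadjusted p under 0.05 against 9.23% of all genes, 17 of them higher and 11 lower in HT, and the median log2 fold change was 0.02. Without HT2 and HT5, 12 (8.7%) had an unadjusted p under 0.05 against 6.02% of all genes. The genes named from these lists had an unadjusted p under 0.05 except Cd44, Icam5, Gabra5 and Slc9a3r1, and none passed adjustment over all genes.

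The 19 membrane partners tested, which ERM proteins link to actin, had a median of 0.06. They held 3 genes at an unadjusted p under 0.05 in each direction (31.6% in all, against 9.23% of all genes). Without HT2 and HT5 there were 3 in all (15.8%, against 6.02% of all genes). With all mice, the lower ones were neuronal adhesion molecules of the L1 family. Chl1 had 10951 ± 859 in HT against 12824 ± 1066 in WT (SD over 5 mice), with no overlap (log2 fold change -0.23, SE 0.07, limma adjusted p 0.452). Of all genes, 0.918% had every HT value below every WT value. Nrcam had a log2 fold change of -0.16 and L1cam of -0.13, with overlap. The higher ones were surface glycoproteins of epithelia, mesothelium or endothelium. Msln (mesothelin) had a log2 fold change of 0.55 at a level of only 105 ± 19.6 in HT and 70.5 ± 6.61 in WT, and Podxl (podocalyxin), a ligand of ezrin through its scaffold, had 0.24. Of the other partners, the log2 fold change was 0.13 (SE 0.16) for the hyaluronan receptor Cd44, -0.01 (SE 0.07) for the dendritic adhesion molecule Icam5 and -0.04 (SE 0.07) for the radixin-anchored receptor subunit Gabra5.

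Of 13 scaffolds (median 0.02), 3 were higher and 1 lower at an unadjusted p under 0.05 (30.8% in all, against 9.23% of all genes). Without HT2 and HT5 there was 1 such gene (7.69%, against 6.02% of all genes, median -0.01). Slc9a3r2 (NHERF2), which ties membrane proteins to ERM proteins, had 1375 ± 107 in HT and 1246 ± 43.2 in WT (log2 fold change 0.14, SE 0.06), Vcl (vinculin) had a log2 fold change of 0.17, Cd2ap 0.16 and Akap9 -0.14. Slc9a3r1 (NHERF1), the main partner of ezrin, had 0.16 (SE 0.10, limma adjusted p 0.617). The 24 genes of the kinase, phosphatase and lipid group had a median of -0.02, with 4 at an unadjusted p under 0.05 (16.7%, against 9.23% of all genes). Without HT2 and HT5 there were 3 (12.5%, against 6.02% of all genes). The 4 with all mice were Slk, a kinase of the ERM threonine, at 0.11, Prkcq at 0.22, Prkca at -0.16 and Prkci at -0.12. Genes that act on the ERM threonine thus had values of either sign.

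On the merlin side, the 28 Hippo pathway genes had a median of 0.01. Of these, 17.9% had an unadjusted p under 0.05 against 9.23% of all genes, 2 higher and 3 lower in HT. Without HT2 and HT5, 0 were at this level, against 6.02% of all genes (median -0.02). The lower ones were Dcaf1 (-0.14), part of a ubiquitin ligase that merlin inhibits, and Taok2 (-0.12) and Taok3 (-0.12), kinases at the head of the cascade, and the higher ones were the transcription factors Tead1 (0.25, SE 0.10) and Tead3 (0.34, SE 0.14). Of 16 target genes of YAP and TAZ, 12 (75%, against 48.8% of all genes) were higher in HT by any amount (median 0.10). An unadjusted p under 0.05 was reached by 4 (25%, against 9.23% of all genes), all higher (4.71% of all genes). F3 (tissue factor) had 869 ± 94.8 in HT and 682 ± 82.0 in WT (log2 fold change 0.35, SE 0.09, limma adjusted p 0.414), Ccn1 had 0.64 (SE 0.21), Axl 0.21 and Nt5e 0.25. F3 is also an astrocyte gene and Axl a gene of microglia and vessels. Without HT2 and HT5, the median of this list was 0.00, and 2 of its genes (12.5%, against 6.02% of all genes) had an unadjusted p under 0.05.

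The wider FERM family did not follow Ezr. Of 44 other FERM-domain genes, 26 were higher in HT by any amount (59.1%, against 48.8% of all genes), and the median was 0.02. An unadjusted p under 0.05 was found for 3 higher and 2 lower genes (11.4% in all, against 9.23% of all genes). Without HT2 and HT5 there were 3 (6.82%, against 6.02% of all genes). Frmpd1 had 655 ± 38.2 in HT and 544 ± 48.6 in WT with no overlap (log2 fold change 0.27, SE 0.07, limma adjusted p 0.414). Of all genes, 0.703% had every HT value above every WT value. Frmpd2 had 0.85 (SE 0.27) at a level of 60.1 ± 15.9 against 34.1 ± 14.02, Frmd3 had -0.24 and Mylip, a ubiquitin ligase that degrades lipoprotein receptors, had -0.17.

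**Figure D4:**
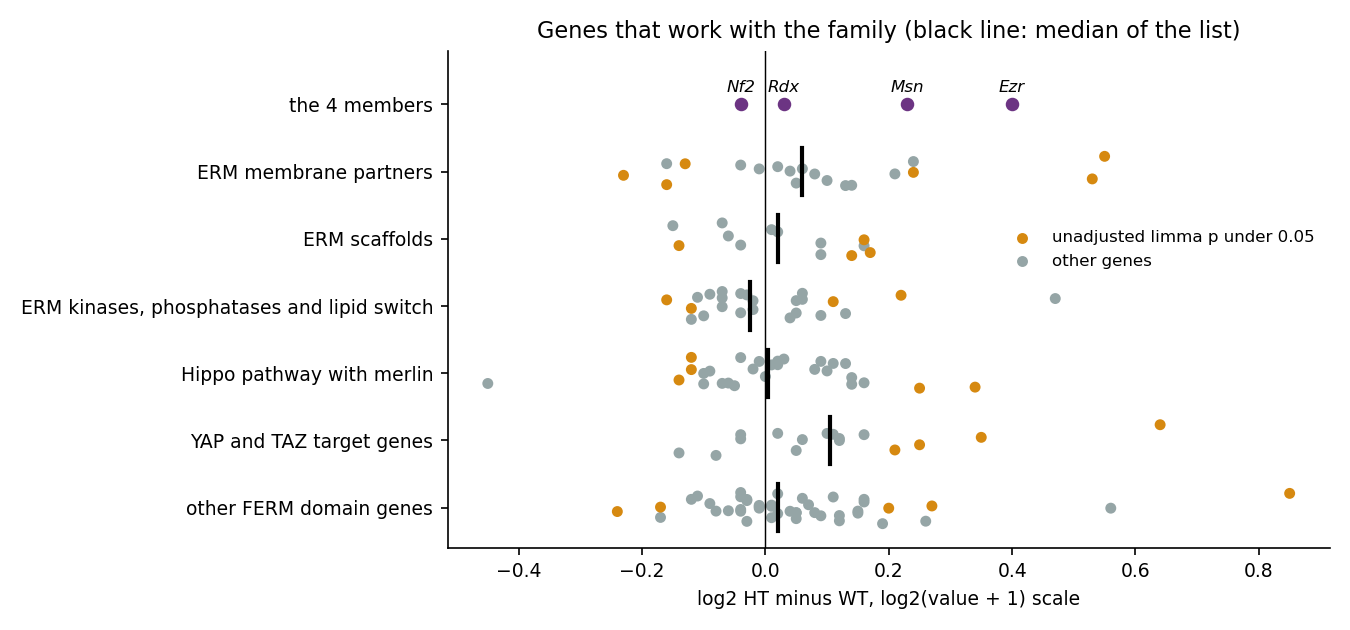
log2 difference between HT and WT for the 4 members (purple, top row) and for the tested genes of the 6 lists (1 point per gene, orange where the unadjusted limma p is under 0.05; black lines give list medians). The medians lie between -0.02 and 0.10, below the values of Ezr (0.40) and Msn (0.23).

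Markers of the cell types in which ERM genes are known to be strong were summed per mouse. The astrocyte list (18 of 18 genes in the table) summed to 195955, 245432, 195750, 223484 and 235245 in HT1 to HT5 and to between 176969 and 207713 in WT. HT2, HT5 and HT4 lay above the WT range and HT1 and HT3 inside it, so the mice with the highest Ezr also had the highest astrocyte sums. Of these markers 18 of 18 were higher in HT by any amount (48.8% of all genes were), 12 had an unadjusted p under 0.05 (9.23% of all genes), 3 (Clu, Gfap and Entpd2) lay higher without overlap (0.703% of all genes), and 0 passed adjustment over all genes (smallest limma adjusted p 0.319). The microglia list (14 of 14) summed to 17864 in HT2 and 17757 in HT5, against 12612 to 14504 in WT and 12710 to 14134 in the other HT mice, with 13 of 14 markers higher by any amount and 3 (C1qa, C1qb and Trem2) at an unadjusted p under 0.05. The part of these and the other cell types in the values of Ezr and Msn was not tested, and in bulk tissue fewer or more cells of a type and less or more RNA per cell cannot be told apart.

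The other lists were summed in the same way. Endothelial and mural markers (14 of 14) ran from 17943 to 19710 in WT. They were at 23882, 21145 and 19830 in HT2, HT4 and HT5, above all WT mice, and at 17756 and 17398 in HT1 and HT3, below them. Meningeal markers (10 of 10) ran from 8680 to 10417 in WT and were at 11171, 11162 and 10748 in HT2, HT5 and HT4, above all WT mice, and at 7568 and 7106 in HT1 and HT3, below them. The 3 HT mice above the WT range were thus the same for the endothelial, meningeal and astrocyte sums. The ependymal and choroid plexus list had 9 of 12 genes in the table, with the ependymal gene Tmem212 at 0 in a library, and its sum overlapped between genotypes (5465 to 6410 in HT, 5142 to 6043 in WT) and rests mostly on Enpp2. Of its 8 genes tested, 5 reached an unadjusted p under 0.05 (9.23% of all genes), each at a low level with a higher HT mean, among them Foxj1, the regulator of motile cilia, with 145 ± 43.7 in HT and 98.9 ± 18.2 in WT (log2 fold change 0.52, SE 0.19, limma adjusted p 0.482). In 8 mice, leaving out HT2 and HT5, 6.02% of all genes had an unadjusted p under 0.05, against 7 of 18 astrocyte, 6 of 10 striatal (median 0.84), 5 of 10 meningeal (median -0.30), 3 of 8 ependymal and choroid plexus, 3 of 12 cortical glutamatergic, 2 of 13 oligodendrocyte-lineage, 1 of 14 endothelial and 0 of 14 microglia markers. The microglia sum of the remaining HT mice was 13565 ± 754 against a WT mean of 13586, and their astrocyte sum was 205063 ± 15953 against 192887. Oligodendrocyte-lineage markers (43983 to 104815 in WT, 74507 to 101253 in HT) and cortical glutamatergic markers (130371 to 160652 and 140654 to 156734) overlapped between genotypes, and so did the striatal sums. By any amount, 48.8% of all genes were higher in HT. So were 13 of 13 oligodendrocyte-lineage markers (median log2 fold change 0.23, as for astrocytes) and 9 of 10 striatal markers (median 0.48).

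**Figure D5:**
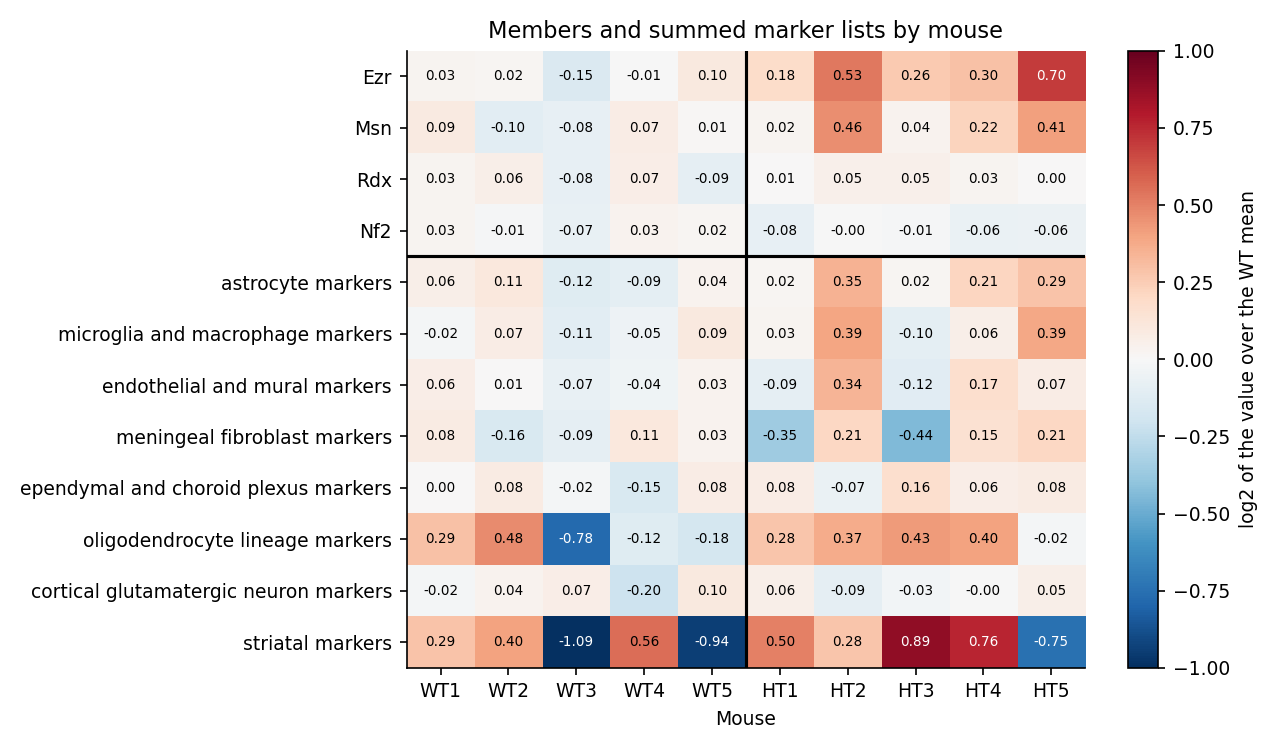
Members (top 4 rows) and summed marker lists (lower 8 rows) in each mouse, as log2 of the value over the WT mean (colour and printed value; the scale is capped at 1 in either direction). Ezr and Msn are highest in HT2 and HT5, where the astrocyte, microglia and meningeal sums are highest too (and in HT2 the endothelial sum), whereas Rdx and Nf2 stay close to 0 in all 10 mice.

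The genes whose pattern over the 10 mice was most like that of each member were found from log2 values with the genotype means subtracted. For Ezr these were Als2cl (r 0.975), Naip5 (r 0.962) and C1qc (r 0.959), the last a complement gene of microglia, and 338 of the tested genes had an r above 0.8. For Msn they were Angptl4 (r 0.983), Prkcd (r 0.972) and Aldh4a1 (r 0.964), with 555 genes above 0.8. For Rdx they were Gdnf (r 0.957), Carhsp1 (r 0.949) and Dlx1as (r 0.948), and for Nf2 Gm43088 (r 0.963), Gpbp1l1 (r 0.948) and Haus1 (r 0.936), with 163 and 93 genes above 0.8. These are the highest of 16781 values over 10 mice and describe these libraries only.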

How the data were processed

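Poly-A RNA from the prefrontal cortex of 10 male mice was sequenced as paired-end libraries made with a stranded kit, per the labels. According to the study's methods and the labels, the authors estimated transcript abundance with Salmon (1.1.0, GRCm38, GC correction), summed it to genes with tximport and divided it by DESeq2 (1.30.1) size factors. What was deposited is thus a signal for each gene, scaled between libraries. Only 6.38% to 21.2% of low values in a library were whole multiples of a step (within 0.02 of a step), so reads were not recovered, the depth is unknown, and no count test was run.

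Log2(value + 1) was fitted for 16781 genes (mean 10 or more) with limma (3.58.1, R 4.3.3, variance trend, genotype only), with Benjamini-Hochberg adjustment over all genes and a threshold of 0.05, two-sided. Symbols, positions and lengths came from GENCODE M21 (GRCm38; 18205 of 18216 identifiers matched). The members and lists were chosen with earlier results of these data known, so no set test was run. Genes named were the members, Arid1b, up to 4 genes per list with an unadjusted p under 0.05 by smallest p, the neighbours without overlap and those flanking Ezr, and the 3 most alike in pattern. Nrcam and Podxl come under this rule. L1cam, Cd44, Icam5, Gabra5, Slc9a3r1, Tiam2, Scaf8, Slc17a7, Tbr1, Enpp2, Tmem212, Dcaf1, Foxj1, Clu, Gfap, Entpd2, C1qa, C1qb and Trem2 were named after their values were seen. On simulated data for HT against WT over 16781 genes, 83% of 200 genes changed by 1 (log2) were recovered, with 5.79% false calls. Recovery of smaller changes, such as the 0.23 of Msn, was not simulated. Same-numbered mice are different animals and nothing in the labels pairs them. P-values measure the spread between these mice, and litters and sequencing batches are not given.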

Additional observations from a re-analysis of the deposited data

Results flagged for a closer look

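Within each genotype, the gap between an extreme mouse and its nearest neighbour was divided by the range of the 5 mice, for the 4 members, Arid1b, the 3 neighbours of Ezr with separated genotypes and the 8 marker sums. Of 32 groups examined, 2 exceeded the critical value of 0.71, where chance gives about 1.6. They were Tmem181b-ps in HT2, at 8886 against 8106 to 8304 in the other HT mice (ratio 0.746), and Tmem181c-ps in WT3, whose 267 compares with 189 to 206 for the remaining WT animals (ratio 0.782). No value of Ezr, Rdx, Msn or Nf2 exceeded it.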

How the results depend on the processing

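Under the 20 alternatives run for each member, the log2 difference of Ezr stayed between 0.25 (without HT2 and HT5) and 0.45 (1 mouse left out), and Rdx, Msn, Nf2 and Arid1b kept their direction and their side of the threshold. Leaving out 1 mouse at a time gave 0.319 to 0.449 for Ezr, 0.176 to 0.286 for Msn, 0.008 to 0.047 for Rdx and -0.062 to -0.035 for Nf2. Without HT2 and HT5, the highest mice for Msn, its difference had to fall and was 0.097. The adjusted p of Msn ranged from 0.361 to 0.885, that of Rdx from 0.692 to 0.974 and that of Nf2 from 0.638 to 0.90. Over all genes 3 or 4 passed the threshold, and 0 of the network genes passed under any of them. In the neighbourhood 2 genes passed under each, except that a window of 1 Mb, which ends before Dynlt1b, gave 0.

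With the replicate number as a block, the log2 difference of Ezr was 0.397, the adjusted p of Msn 0.505 and 3 genes passed the threshold, so no call changed. Same-numbered mice had deviations with a mean correlation of 0.0375 (from -0.041 to 0.101), against -0.00909 for other pairs. So few values cannot exclude a pairing by litter or batch, which the labels do not give. Per kb of longest transcript in place of all exons, Msn was at 276 in WT and 327 in HT, Rdx at 554 and 565 and Nf2 at 1202 and 1166, and the order of the members in WT was the same. Depth is unknown, so precision rests on the spread of 5 mice per genotype.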
